A study of Mus musculus with 9 samples.

Results

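The genes described here are 10 of the 52661 gene rows of the count table, matched by Ensembl identifier to their symbols. They are Map2k1 and Map2k2, which encode the copper-binding kinases MEK1 and MEK2, and 8 genes transcribed downstream of ERK, the kinase that MEK activates: Dusp4, Dusp6, Spry2, Spry4, Etv4, Etv5, Egr1 and Fosl1. They were chosen by name, for their place in the pathway, and not by a measured value, although earlier results of these data were known. Each of the 10 had enough counts to be tested.

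RAF kinases activate MEK1 and MEK2, which phosphorylate ERK, and active ERK moves into the nucleus and switches on early genes. Several of these genes encode inhibitors of the same cascade, so the transcript level of Dusp6 or Sprouty genes is widely read as an output of ERK signalling that also feeds back on it. MEK1 and MEK2 bind copper, and copper binding raises their ability to phosphorylate ERK. Growth factors of the EGF and FGF families drive the cascade in fibroblasts.

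RNA was sequenced from mouse embryonic fibroblasts (MEFs) of strain C57BL/6. Each of the 3 groups held 3 libraries. The first was Ctr1 -/- cells given BCS (bathocuproine disulfonic acid), which chelates copper and stays largely outside cells, at 500 µM for 48 hours. The series record gives that dose in mM and the sample labels in µM. The second was Ctr1 -/- cells without BCS, lacking the copper importer encoded by Slc31a1 and titled FloxedCtr1. The third was wild type cells, described as isogenic with them. All groups were immortalised with T/t antigen, and the growth protocol gives all of them EGF and FGF-2 at 10 ng/ml each, so the ERK pathway was read in cells fed 2 of its activating ligands. Below, the Ctr1 -/- cells are called Ctr1-null, and levels are in CPM, counts scaled to TMM-adjusted library totals. The comparison of BCS with wild type differs in both Ctr1 and BCS, so their parts in it cannot be told apart.

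Library totals lay between 38962036 and 57206337 counts. The targeted Slc31a1 was at 3.24, 2.54 and 1.69 CPM with BCS and at 2.54, 3.88 and 1.40 CPM in Ctr1-null cells, against 56.1, 54.8 and 54.9 CPM in wild type cells. Of 12 fibroblast markers, 9 were above 1 CPM in all libraries of each group, while Lum and Thy1 were below 1 CPM in every group and Dcn also with BCS. Wild type replicate 1 differed by over 2-fold from the other wild type libraries at 2004 and 1817 genes, while those 2 differed from each other at 676, and results of the 10 genes against wild type are therefore given with and without it. Ctr1-null replicate 1 differed likewise from its partners at 1087 and 1343 genes, against 756 between those, and values without it are given after the single genes. Markers of fat cells summed to 67.4 to 81.8 CPM with BCS, 58.8 to 85.5 CPM in Ctr1-null and 24.4 to 30.3 CPM in wild type libraries. Those of macrophages and blood summed to 18.9 to 26.4 CPM with BCS, 16.0 to 22.1 CPM in Ctr1-null and 10.9 to 18.6 CPM in wild type libraries, and those of neural progenitors and glia to 121 to 146 CPM with BCS, 173 to 202 CPM in Ctr1-null and 157 to 244 CPM in wild type libraries. Muscle markers summed to 6.00 to 11.1 CPM with BCS, 4.74 to 7.79 CPM in Ctr1-null and 4.08 to 4.29 CPM in wild type libraries. Epithelial markers summed to 2.16 to 2.57 CPM with BCS and 2.58 to 9.89 CPM in wild type libraries, with Ctr1-null libraries overlapping both, while endothelial markers overlapped between all groups. Among these markers, Adipoq, Plin1, Ptprc, Adgre1, Pax6, Gfap, Olig2, Myod1, Myog, Epcam and Cdh1 were below 1 CPM in every group. Others were above 1 CPM in all libraries of a group. For fat cells these were 4 of 7 with BCS, 4 in Ctr1-null and 2 in wild type cells. In the same order they were 3, 2 and 2 of 9 for neural progenitors and glia and 2, 2 and 1 of 7 for muscle. For epithelial cells they were 1, 0 and 1 of 7. In every group they were 2 of 7 for macrophages and blood and 2 of 6 for endothelial cells. The part of these cells in the results was not tested. The labels do not state that libraries came from separate cultures, so p-values measure the spread between these libraries, which may be technical. Whether each genotype is 1 line or several is not stated, so loss of Ctr1 and other differences between lines cannot be told apart. In bulk RNA, fewer cells of a kind and less RNA per cell cannot be told apart either.

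Map2k1 (GRCm38 chromosome 9, 64185770 to 64253631) differed little between the groups. It was at 77.0, 78.8 and 77.7 CPM with BCS, at 81.9, 69.6 and 72.4 CPM in Ctr1-null cells and at 67.7, 72.6 and 74.2 CPM in wild type cells. The 3 libraries with BCS lay above all wild type libraries, and the Ctr1-null libraries overlapped both groups. The log2 fold change was 0.12 ± 0.08 (SE) with BCS against wild type (adjusted p = 0.297), 0.06 ± 0.08 with BCS against Ctr1-null (0.756) and 0.06 ± 0.08 in Ctr1-null against wild type (0.701), all by edgeR's quasi-likelihood test with Benjamini-Hochberg adjustment over 18408 genes. The 95% interval of the fold with BCS against wild type was 0.966 to 1.23. In the fit without wild type replicate 1 the differences from wild type were 0.08 with BCS and 0.02 in Ctr1-null cells (edgeR adjusted p = 0.504 and 0.879). With all 9 libraries scaled by library size alone, the log2 fold change with BCS against wild type was 0.22. It passed the test, at an edgeR adjusted p of 0.0408.

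Map2k2 (chromosome 10, 81105915 to 81133975) was at 126, 128 and 118 CPM with BCS, at 128, 118 and 107 CPM in Ctr1-null cells and at 108, 142 and 149 CPM in wild type cells. Wild type replicate 1 was the low wild type library, and all 3 groups overlapped. Its log2 fold change was -0.10 ± 0.12 with BCS against wild type and -0.18 ± 0.12 in Ctr1-null against wild type (edgeR adjusted p = 0.590 and 0.450). It was 0.08 ± 0.12 with BCS against Ctr1-null (edgeR adjusted p = 0.806). In the fit without wild type replicate 1, Map2k2 was lower in Ctr1-null than in wild type cells, with a log2 fold change of -0.31 ± 0.09 (edgeR adjusted p = 0.0411). With BCS against wild type it was then -0.24 ± 0.09 (edgeR adjusted p = 0.0675).

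The order of the 2 kinase genes by RNA per length depended on the length used in both Ctr1-null groups. Over merged exons, Map2k2 averaged 21.9 ± 0.887 CPM per kb with BCS, 20.8 ± 1.88 in Ctr1-null and 23.5 ± 3.82 in wild type cells, and Map2k1 averaged 23.0 ± 0.266 CPM per kb with BCS, 22.0 ± 1.89 in Ctr1-null and 21.1 ± 0.998 in wild type cells (SD, n = 3 each). Over the mean length of their protein-coding transcripts, Map2k2 was the higher in every group, at 89.8 ± 3.63 CPM per kb with BCS, 85.1 ± 7.70 in Ctr1-null and 96.3 ± 15.7 in wild type cells. Map2k1 was then at 32.0 ± 0.370 CPM per kb with BCS, 30.6 ± 2.64 in Ctr1-null and 29.4 ± 1.39 in wild type cells. Merged exons of Map2k2 span 5663 bases and its coding transcripts average 1382, against 3391 and 2436 bases for Map2k1. By either length Dusp4 was the lowest of the 10 genes in every group.

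**Figure D1:**
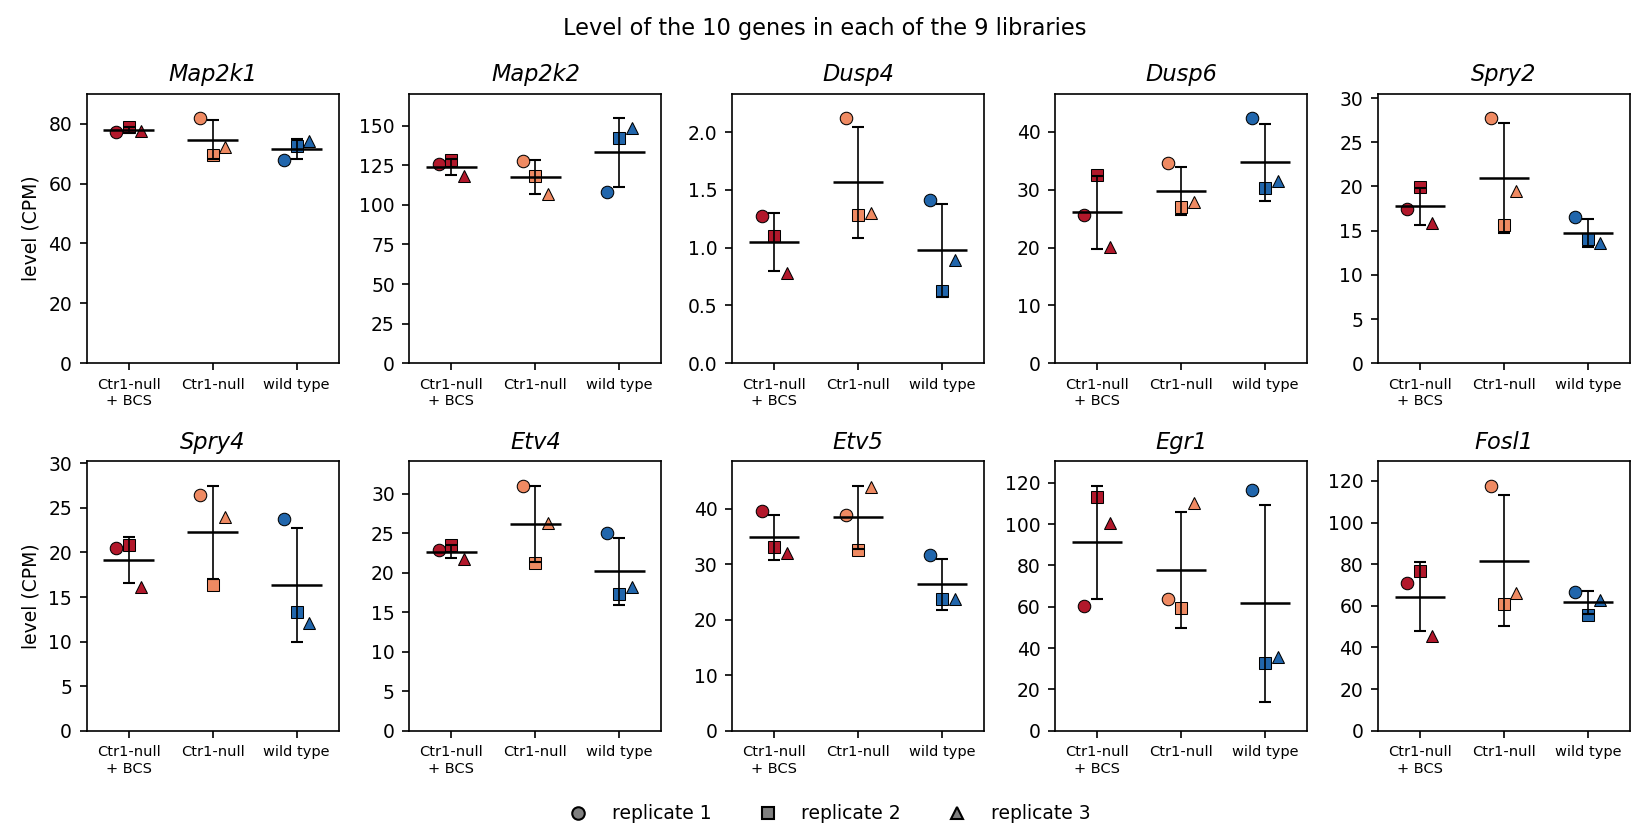
Level (CPM, linear axis from 0) of each of the 10 genes in the 9 libraries, with Ctr1-null cells given BCS in red, Ctr1-null cells in orange and wild type cells in blue. Symbols are single libraries, horizontal lines group means and bars ± 1 SD (n = 3). Wild type replicate 1 (blue circle) is the highest wild type library for all 8 output genes and the lowest for Map2k1 and Map2k2.

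Among the ERK phosphatases, neither gene passed the test in any comparison. Dusp6 encodes a cytoplasmic phosphatase that dephosphorylates ERK and is itself induced by ERK. Its promoter is shown beside that of Spry2, an output gene that tracked Dusp6 only weakly over the libraries (r = 0.24, n = 9). RefSeq's table for GRCm38.p6 held promoters for 5 of the 10 genes, in 6 windows. The windows below are the 250 bases before each gene's start, 5′ to 3′ on the gene's strand, with the ETS core CGGAA, or its reverse complement, in capitals. The Dusp6 window is chr10:99262981-99263230 (+ strand) and the Spry2 window chr14:105896820-105897069 (- strand).
Dusp6: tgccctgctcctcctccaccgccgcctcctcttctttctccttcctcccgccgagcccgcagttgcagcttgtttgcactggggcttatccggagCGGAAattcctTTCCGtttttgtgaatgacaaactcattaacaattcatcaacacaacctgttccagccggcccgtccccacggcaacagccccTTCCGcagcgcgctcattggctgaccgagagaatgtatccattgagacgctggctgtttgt
Spry2: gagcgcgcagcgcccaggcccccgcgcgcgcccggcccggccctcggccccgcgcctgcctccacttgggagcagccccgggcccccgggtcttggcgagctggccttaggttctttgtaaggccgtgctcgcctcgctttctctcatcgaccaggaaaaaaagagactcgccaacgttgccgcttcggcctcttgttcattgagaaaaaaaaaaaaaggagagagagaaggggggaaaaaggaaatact

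The Dusp6 window held 3 copies of the core, at 155, 144 and 61 bases before the start, the Map2k1 window held 2, and the windows of Map2k2, Spry2 and Etv5 held none. Of 32851 RefSeq promoter windows of this length, 25.2% hold the core. The core was searched after 5 longer motifs, on both strands, had given no match in the 6 windows. Those were the ETS motif CCGGAAG (in 6.91% of all windows), the AP-1 motif TGANTCA (6.75%), the EGR motif GCGNGGGCG (4.70%), the CRE motif TGACGTCA (1.55%) and the CArG box (1.47%). The ETS core lies within the longer ETS motif. Over the 9 libraries Dusp6 correlated at -0.27 with Map2k1, whose window holds the core. With Map2k2 and Etv5, whose windows lack it, r was 0.02 and -0.13. Whether the core bears on these correlations was not tested.

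Dusp6 (chromosome 10, 99263231 to 99267489) was at 25.6, 32.6 and 20.0 CPM with BCS, at 34.6, 27.0 and 27.8 CPM in Ctr1-null cells and at 42.4, 30.2 and 31.5 CPM in wild type cells. The group means of Dusp6 were 26.1 ± 6.30 CPM with BCS, 29.8 ± 4.17 CPM in Ctr1-null and 34.7 ± 6.69 CPM in wild type cells (SD, n = 3 each). From lowest to highest mean the order was BCS, Ctr1-null and wild type, and every pair of groups overlapped. Against wild type, the log2 fold change with BCS was -0.41 ± 0.19 (edgeR adjusted p = 0.164), with a 95% interval of the fold from 0.559 to 1.01. The difference was -0.19 ± 0.19 with BCS against Ctr1-null and -0.22 ± 0.19 in Ctr1-null against wild type (edgeR adjusted p = 0.683 and 0.562). When wild type replicate 1 was left out, the difference from wild type was -0.25 ± 0.18 with BCS and -0.05 ± 0.19 in Ctr1-null cells (edgeR adjusted p = 0.332 and 0.867).

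Dusp4, which encodes a nuclear phosphatase of ERK, was the least abundant member and rests on few counts. It had 70, 58 and 39 counts with BCS, 107, 66 and 63 counts in Ctr1-null cells and 68, 23 and 48 counts in wild type cells. These are 1.27, 1.10 and 0.777 CPM with BCS, 2.12, 1.28 and 1.30 CPM in Ctr1-null and 1.41, 0.622 and 0.892 CPM in wild type cells. All libraries with BCS lay below all Ctr1-null libraries, by as little as 1.27 against 1.28 CPM. On the log2 scale the difference was -0.58 ± 0.33 with BCS against Ctr1-null (edgeR adjusted p = 0.459), 0.10 ± 0.34 with BCS against wild type (0.874) and 0.67 ± 0.34 in Ctr1-null against wild type (0.330). When wild type replicate 1 was left out, the differences from wild type were 0.45 ± 0.33 with BCS and 1.03 ± 0.33 in Ctr1-null cells (edgeR adjusted p = 0.335 and 0.0607).

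The Sprouty genes encode inhibitors that ERK signalling induces and that act on the steps between receptor and RAF. Spry2 was at 17.4, 20.0 and 15.9 CPM with BCS, at 27.7, 15.6 and 19.5 CPM in Ctr1-null cells and at 16.6, 14.1 and 13.6 CPM in wild type cells. The highest value was Ctr1-null replicate 1, and each pair of groups overlapped. In Ctr1-null against wild type cells the log2 fold change of Spry2 was 0.51 ± 0.19 (edgeR adjusted p = 0.227), with a 95% interval of the fold from 1.06 to 1.91. With BCS it was 0.27 ± 0.19 against wild type and -0.24 ± 0.19 against Ctr1-null (edgeR adjusted p = 0.361 and 0.597). Leaving out wild type replicate 1 gave 0.35 ± 0.21 with BCS and 0.60 ± 0.21 in Ctr1-null against wild type (edgeR adjusted p = 0.235 and 0.0837).

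Spry4 was at 20.5, 20.8 and 16.2 CPM with BCS, at 26.4, 16.4 and 24.0 CPM in Ctr1-null cells and at 23.7, 13.3 and 12.1 CPM in wild type cells. Wild type replicate 1 lay within the range of the Ctr1-null libraries, and the other two wild type libraries lay below all 6 Ctr1-null libraries with or without BCS. With all libraries the log2 fold change was 0.23 ± 0.26 with BCS against wild type, -0.22 ± 0.26 with BCS against Ctr1-null and 0.44 ± 0.26 in Ctr1-null against wild type (edgeR adjusted p = 0.583, 0.745 and 0.397). Without wild type replicate 1 it was 0.59 ± 0.20 with BCS against wild type and 0.81 ± 0.20 in Ctr1-null against wild type (edgeR adjusted p = 0.0498 and 0.0246).

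Etv4 and Etv5 encode ETS transcription factors of the PEA3 group, whose transcription FGF and ERK signalling induces. Etv4 was at 22.9, 23.5 and 21.7 CPM with BCS, at 31.0, 21.3 and 26.3 CPM in Ctr1-null cells and at 25.0, 17.4 and 18.2 CPM in wild type cells. The libraries with BCS spanned 1.08-fold from lowest to highest, against 1.46-fold in Ctr1-null and 1.44-fold in wild type cells, and all groups overlapped. For Etv4 the log2 fold change was 0.17 ± 0.16 with BCS against wild type, -0.21 ± 0.16 with BCS against Ctr1-null and 0.38 ± 0.16 in Ctr1-null against wild type (edgeR adjusted p = 0.510, 0.592 and 0.274). Leaving out wild type replicate 1 gave 0.35 ± 0.14 with BCS and 0.56 ± 0.14 in Ctr1-null against wild type (edgeR adjusted p = 0.0914 and 0.0273).

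Etv5 had the smallest p of the 10 genes in both comparisons with wild type. It was at 39.5, 33.1 and 32.0 CPM with BCS, at 38.8, 32.6 and 44.0 CPM in Ctr1-null cells and at 31.7, 23.7 and 23.7 CPM in wild type cells. All 6 Ctr1-null libraries, with and without BCS, lay above all wild type libraries. The lowest with BCS, 32.0 CPM, stood next to wild type replicate 1 at 31.7 CPM. The difference was 0.40 ± 0.15 on the log2 scale with BCS against wild type (edgeR adjusted p = 0.0937) and 0.54 ± 0.15 in Ctr1-null against wild type (edgeR adjusted p = 0.141). The second difference had the smaller p and the larger adjusted p. In that comparison 17.6% of all genes had an unadjusted p under 0.05, against 32.9% in the first. DESeq2 called Etv5 in Ctr1-null against wild type at an adjusted p of 0.0216. Without wild type replicate 1 the differences were 0.55 ± 0.14 with BCS and 0.70 ± 0.14 in Ctr1-null (edgeR adjusted p = 0.0152 and 0.0103). BCS against Ctr1-null gave -0.14 ± 0.15 (edgeR adjusted p = 0.707).

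Egr1 encodes a zinc-finger factor and is a classical immediate early gene. Of the 10 genes it varied most within the group with BCS and within wild type, and Fosl1 did within Ctr1-null cells. It was at 60.4, 113 and 100.5 CPM with BCS, at 63.9, 59.5 and 110.3 CPM in Ctr1-null cells and at 117, 32.7 and 35.8 CPM in wild type cells. The highest of all 9 values was wild type replicate 1, 3.56-fold above the lowest wild type library. The coefficient of variation was 30.0% with BCS, 36.1% in Ctr1-null and 77.1% in wild type cells, and that of Fosl1 in Ctr1-null cells was 38.4%. Egr1 had a log2 fold change of 0.56 ± 0.47 with BCS against wild type, 0.23 ± 0.47 with BCS against Ctr1-null and 0.33 ± 0.47 in Ctr1-null against wild type (edgeR adjusted p = 0.441, 0.863 and 0.737). Without wild type replicate 1 it was 1.41 ± 0.31 with BCS and 1.18 ± 0.31 in Ctr1-null against wild type (edgeR adjusted p = 0.0102 and 0.0319).

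Fosl1 encodes FRA-1, an AP-1 subunit whose gene is induced and whose protein is stabilised by ERK. Its exons share 1163 bases with those of Ccdc85b on the opposite strand. Ccdc85b had 1097 to 1665 counts per library and 44.0% of Fosl1's total, and whether counting used strand is not stated, so the division of reads between these genes is uncertain. Fosl1 was at 71.0, 76.7 and 45.6 CPM with BCS, at 118, 61.1 and 66.1 CPM in Ctr1-null cells and at 66.6, 55.7 and 62.7 CPM in wild type cells. Ctr1-null replicate 1 was the high library and all groups overlapped. Fosl1 had a log2 fold change of 0.06 ± 0.26 with BCS against wild type, -0.34 ± 0.26 with BCS against Ctr1-null and 0.40 ± 0.26 in Ctr1-null against wild type (edgeR adjusted p = 0.892, 0.573 and 0.431). Leaving out wild type replicate 1 gave 0.12 ± 0.29 with BCS and 0.46 ± 0.30 in Ctr1-null against wild type (edgeR adjusted p = 0.797 and 0.307).

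**Figure D2:**
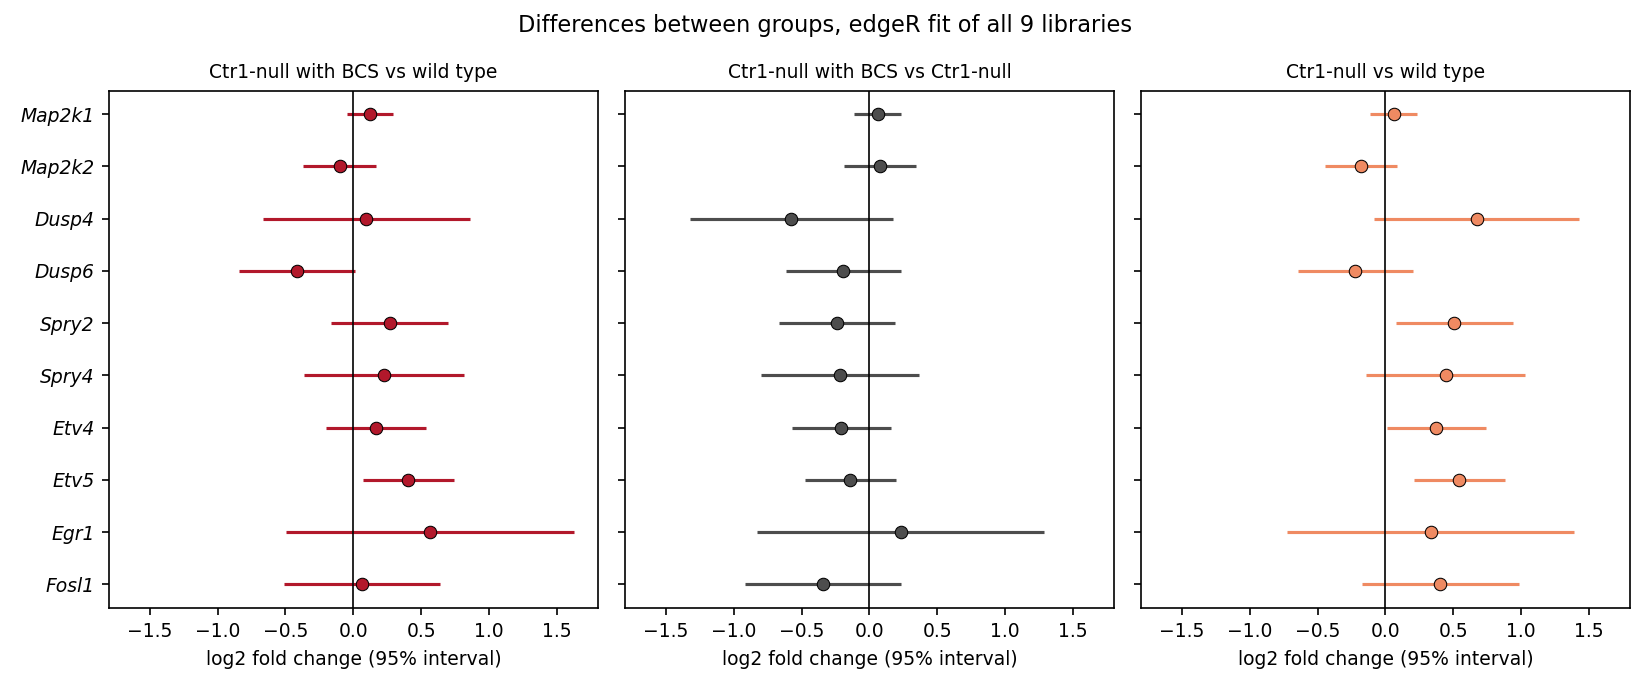
Log2 fold change of the 10 genes in the 3 comparisons, from the edgeR fit of all 9 libraries, with points for estimates and lines for their 95% intervals. None passed an adjusted p of 0.05, and the intervals of Egr1 are the widest, reaching 1.62 with BCS against wild type.

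Counted together, 0 of the 10 genes passed the edgeR test in any comparison. Of all tested genes, 15.8% passed with BCS against wild type, 0.0543% with BCS against Ctr1-null and 0.0109% in Ctr1-null against wild type. In the last 2 comparisons the background was therefore near 0, and a count of 0 members says little there. At an unadjusted edgeR p under 0.05 there was 1 member with BCS against wild type (Etv5), beside 32.9% of all genes, 0 with BCS against Ctr1-null, beside 14.7%, and 3 in Ctr1-null against wild type (Etv5, Spry2 and Etv4), beside 17.6%. DESeq2 called 0, 0 and 1 members in these comparisons, beside 22.2%, 3.86% and 5.74% of its tested genes, and limma-voom called 0 in each, beside 16.4%, 0.0652% and 0.0326%.

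Groups that did not overlap were few. Map2k1 and Etv5 stood above wild type in every library with BCS, beside 37.1% of all genes that did not overlap in either direction. Dusp4 alone among the 10 was separate with BCS against Ctr1-null, beside 24.3% of all genes, and in Ctr1-null against wild type only Etv5, beside 18.1%. These shares of members are no higher than those of all genes.

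Most of the 8 output genes shared signs. Positive log2 fold changes were found for 7 of 8 with BCS against wild type, with a median of 0.20 against 0.0065 over all genes, and for 7 of 8 in Ctr1-null against wild type, with a median of 0.42 against 0.0050. Of all genes, 50.7% were positive in each of these comparisons. Dusp6 was the exception in both. Egr1 was the 1 of 8 that was positive with BCS against Ctr1-null, beside 50.3% of all genes, with a median of -0.21 against 0.0017 over all genes. The comparisons share libraries, so their signs are not independent of each other, and the genes varied together within groups.

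Within groups, the same libraries were high or low for most output genes. Wild type replicate 1 was the highest wild type library for 8 of 8, Ctr1-null replicate 2 the lowest Ctr1-null library for 8 of 8, and BCS replicate 3 the lowest library with BCS for 7 of 8. Ctr1-null replicate 1 was the highest Ctr1-null library for 6 of 8, the exceptions being Etv5 and Egr1. Averaged over the 8 genes, log2 CPM relative to each gene's mean over the 9 libraries was 0.03, 0.18 and -0.19 with BCS, 0.46, -0.10 and 0.24 in Ctr1-null and 0.24, -0.47 and -0.38 in wild type libraries. Wild type replicate 1 thus had nearly the same average as Ctr1-null replicate 3.

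**Figure D3:**
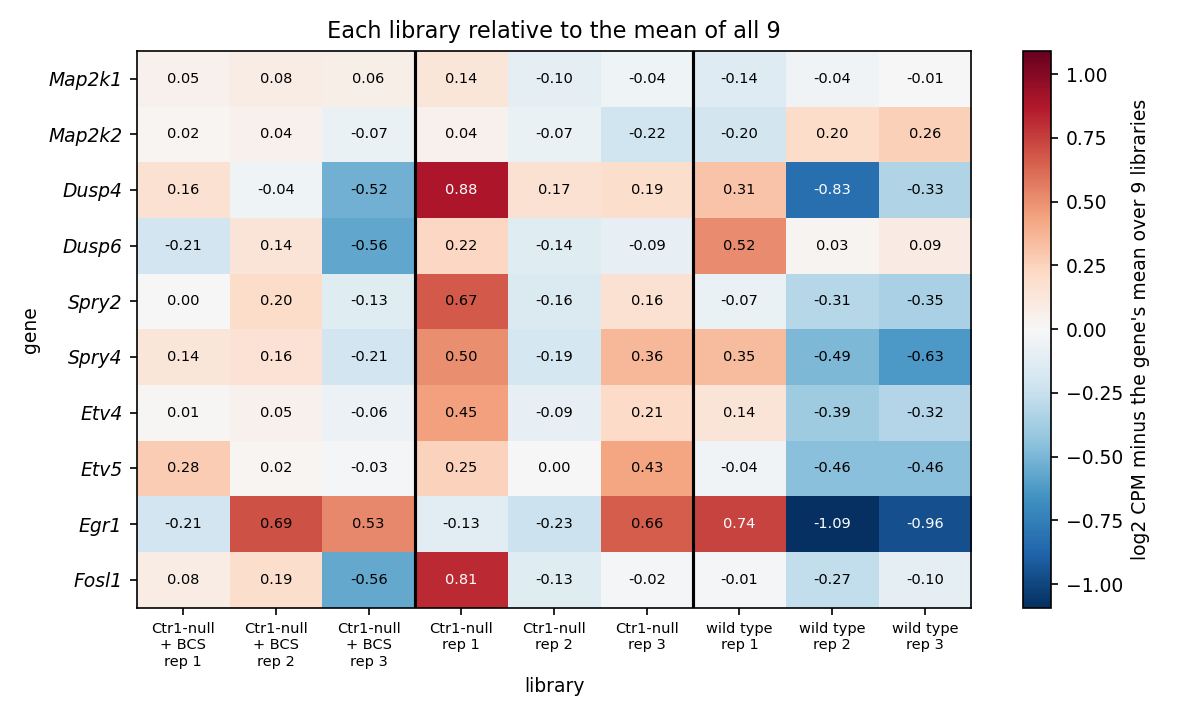
Log2 CPM of each gene in each library minus the gene's mean over the 9 libraries, with the value printed in each cell (red above, blue below the mean). Among wild type libraries, replicates 2 and 3 are low for most output genes while replicate 1 is not. Dusp6, Map2k1 and Map2k2 do not follow that pattern.

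As a description over the 9 libraries, which share library scaling and 3 groups, 27 of the 28 pairs of output genes had a positive Pearson correlation of log2 CPM, with a median of 0.68. Spry4 and Etv4 tracked each other most closely (r = 0.95), and Dusp6 and Etv5 least (r = -0.13). Map2k2 ran opposite to Egr1 (r = -0.83), Etv5 (r = -0.70) and Spry4 (r = -0.68), while the highest correlation of Map2k1 with an output gene was 0.59, with Spry2.

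Among 10788 genes with a mean of at least 5 CPM, those most like Spry4 over the 9 libraries were B130055M24Rik (r = 0.97), Socs5 (0.97) and Ereg (0.97), of which Socs5 encodes a suppressor of cytokine signalling and Ereg the EGF receptor ligand epiregulin. Those most like Etv4 were Soat1, Ptger4 and Rap1gap2, with r from 0.97 to 0.98. Fosl1 was tracked by Phlda1 (r = 0.96), Dhx37 (0.95) and Topbp1 (0.94), and Dusp6 by Cfap43 (0.96), B3galt1 (0.95) and Qtrt1 (0.95). For Map2k1 these genes were Rheb, Mrpl10 and Cpox, with r from 0.96 to 0.97, and for Map2k2 Rtcb, Pdxk and Slc25a16, with r from 0.98 to 0.99. For these 6 members, none of the other members was among the 3 closest genes.

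Leaving out wild type replicate 1 changed the calls against wild type, while leaving out any other single library left 0 of the 10 genes called. Of all genes, those other fits called 568 to 3557 with BCS against wild type. They called 0 to 6 with BCS against Ctr1-null and 1 to 2 in Ctr1-null against wild type. Without wild type replicate 1, 5 of 10 passed in Ctr1-null against wild type: Spry4, Etv4, Etv5 and Egr1 were higher in Ctr1-null cells and Map2k2 was lower. In that fit 17.3% of all genes passed. Spry4, Etv5 and Egr1, 3 of 10, passed with BCS against wild type, all higher with BCS, beside 31.0% of all genes. With BCS against Ctr1-null 0 of 10 passed by edgeR at an adjusted or an unadjusted p under 0.05, beside 0.972% of all genes at the adjusted and 19.9% at the unadjusted threshold. The median over the 8 output genes was then 0.40 with BCS against wild type and 0.65 in Ctr1-null against wild type, against 0.027 and 0.020 over all genes.

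Without Ctr1-null replicate 1, 0 of the 10 genes passed by edgeR in any comparison. Of all genes, that fit called 3557 with BCS against wild type, 1 with BCS against Ctr1-null and 2 in Ctr1-null against wild type. The differences that involve Ctr1-null cells were mostly smaller. The median over the 8 output genes was then -0.07 with BCS against Ctr1-null, with 3 of 8 positive, and 0.28 in Ctr1-null against wild type, with 7 of 8 positive. With BCS against Ctr1-null, Spry2 was at 0.02 ± 0.15 and Fosl1 at 0.02 ± 0.19, both of the other sign than with all libraries, and Dusp4 at -0.29 ± 0.34 (edgeR adjusted p = 0.981, 0.982 and 0.820). In Ctr1-null against wild type, Spry2 was at 0.25 ± 0.14, Fosl1 at 0.04 ± 0.19 and Etv5 at 0.54 ± 0.17 (edgeR adjusted p = 0.332, 0.916 and 0.172).

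**Figure D4:**
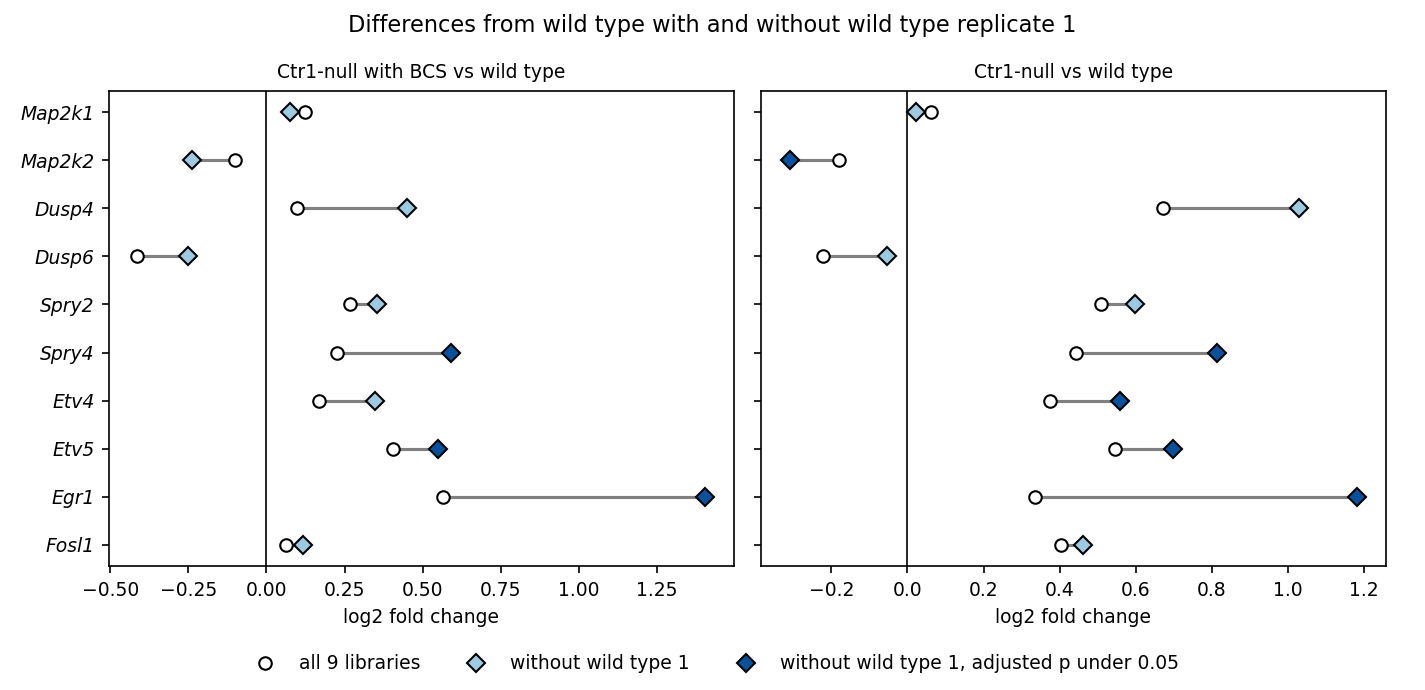
Log2 fold change against wild type with all 9 libraries (open circles) and without wild type replicate 1 (diamonds, dark where the edgeR adjusted p was under 0.05), for Ctr1-null cells with BCS (left) and Ctr1-null cells (right). Egr1 differed most between the fits, at 1.41 without that library and 0.56 with it in cells given BCS, and at 1.18 and 0.33 in Ctr1-null cells.

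Beyond the members, 14 lists of pathway genes held 170 genes, of which 162 were tested. By edgeR 25 of 162 passed with BCS against wild type, which is 15.4% beside 15.8% of all genes, 7 of them higher and 18 lower with BCS. Of these 25, 24 were also called in the same direction without wild type replicate 1, and Jund was not (edgeR adjusted p = 0.0726). The medians of the lists lay between -0.25 and 0.25. In Ctr1-null against wild type the targeted Slc31a1 was the single call, at -4.40 ± 0.33 (edgeR adjusted p = 0.00303). Gdf15 was the single call with BCS against Ctr1-null, at 1.44 ± 0.17 (edgeR adjusted p = 0.0293), which lost its call when any 1 library other than wild type replicate 1 was left out. With BCS against wild type there were 3 calls without BCS replicate 1, BCS replicate 3 or wild type replicate 3. There were 4 without wild type replicate 2, 15 without Ctr1-null replicate 2 and 16 without BCS replicate 2. Calls among all genes moved too. In the order of these 6 libraries they were 796, 640, 568, 645, 2171 and 1959, against 2916 with all libraries.

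Of 7 RAF, MEK and ERK kinase genes, 0 passed by edgeR or limma-voom in any comparison, and at an unadjusted edgeR p under 0.05 there was 1 in each. The shares of all genes at that threshold were 32.9% with BCS against wild type, 14.7% with BCS against Ctr1-null and 17.6% in Ctr1-null against wild type. DESeq2 called 1, in Ctr1-null against wild type, beside 5.74% of all genes, and 0 in the other comparisons. The edgeR fit without wild type replicate 1 called 1 of 7 (14.3%), lower, in each comparison with wild type, which in Ctr1-null cells was Map2k2. Of all genes, that fit called 31.0% with BCS and 17.3% in Ctr1-null cells. Scaling by library size alone, with all 9 libraries, called Map2k1 with BCS against wild type. Mapk3, encoding ERK1, averaged 106 ± 14.0 CPM with BCS and 110.3 ± 6.40 CPM in Ctr1-null cells, against 88.9 ± 3.07 CPM in wild type cells, and both groups lay above wild type in every library (edgeR adjusted p = 0.0969 and 0.164, and 0.0741 and 0.0568 without wild type replicate 1). Of all genes, 37.1% with BCS and 18.1% in Ctr1-null cells did not overlap wild type, in either direction. Araf was at a log2 fold change of 0.22 ± 0.07 with BCS against Ctr1-null (edgeR adjusted p = 0.215).

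Upstream of them, the calls given next are of Ctr1-null cells with BCS against wild type, where both Ctr1 and BCS differ. Fgf18, an FGF ligand, was higher by 1.27 ± 0.29 (edgeR adjusted p = 0.0209). Its level was low, at 1.43 ± 0.14 CPM with BCS against 0.589 ± 0.03 CPM in wild type cells. Of 11 receptor genes 2 fell, Met at -0.80 ± 0.17 and Igf1r at -0.46 ± 0.10 (edgeR adjusted p = 0.0181 and 0.0187), and 0 rose. Of 18 genes of RAS loading and adaptors 3 passed, 1 higher and 2 lower. Of these, Rasal2 (-0.56 ± 0.11), a RAS GTPase activator, fell and the adaptor Gab2 (0.64 ± 0.16) rose, at edgeR adjusted p-values of 0.0140 and 0.0263. The scaffold Iqgap1 fell by 0.33 ± 0.09, 1 of 11 (edgeR adjusted p = 0.0411). In the parallel cascades Map2k5, the kinase of ERK5, rose by 0.29 ± 0.08 and Mapk8, encoding JNK1, fell by 0.56 ± 0.13 (edgeR adjusted p = 0.0392 and 0.0212), 2 of 13. Beside 15.8% of all genes, the called shares were 8.33% of ligands, 18.2% of receptors and 16.7% of RAS loading and adaptor genes. They were 9.09% of scaffolds and 15.4% of the parallel cascades.

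Among genes downstream, rises and falls are again of Ctr1-null cells with BCS against wild type, where both Ctr1 and BCS differ. The ERK-activated kinases Rps6ka3 and Rps6ka6 were lower, at -0.47 ± 0.10 and -0.98 ± 0.24 (edgeR adjusted p = 0.0149 and 0.0257), 2 of 8 tested. Of 10 MAP kinase phosphatase genes 0 passed by edgeR or limma-voom, with 2 at an unadjusted edgeR p under 0.05 and 1 called by DESeq2. Of all genes with BCS against wild type, 32.9% had an unadjusted edgeR p under 0.05 and DESeq2 called 22.2%. Without wild type replicate 1 edgeR called 2 of 10, Dusp7 and Dusp10, both higher, with BCS against wild type (adjusted p = 0.0150 and 0.0400) and in Ctr1-null against wild type (0.0145 and 0.0103). That is 20% in each, beside 31.0% of all genes with BCS and 17.3% in Ctr1-null cells. Lrig1, an inhibitor of receptor tyrosine kinases, was 1 of 10 feedback inhibitors to pass, at -0.36 ± 0.10 (edgeR adjusted p = 0.0350), and Etv6, an ETS repressor, 1 of 12 ETS genes, at -0.40 ± 0.11 (0.0399). Of 21 immediate early genes Klf4 (1.26 ± 0.29) and Fosb (0.74 ± 0.21) rose and Ier5 (-0.37 ± 0.09) fell, at edgeR adjusted p-values of 0.0205, 0.0408 and 0.0266. Among 9 AP-1 subunits Fosb and Jund (0.37 ± 0.11, edgeR adjusted p = 0.0488) rose. With all libraries, the called shares were 25% of ERK-activated kinases, 10% of feedback inhibitors and 8.33% of ETS genes. They were 14.3% of immediate early genes and 22.2% of AP-1 subunits, beside 15.8% of all genes.

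The list of further ERK-responsive genes had 6 of 20 called with BCS against wild type, which is 30% beside 15.8% of all genes. Gdf15, a stress-induced cytokine of the TGF-beta family, was the single one to rise, at 14.2, 12.9 and 17.5 CPM with BCS and 4.26, 5.56 and 6.61 CPM in Ctr1-null cells, against 4.72, 4.92 and 4.55 CPM in wild type cells. All libraries with BCS lay above all others, and the difference from wild type was 1.65 ± 0.18 on the log2 scale (edgeR adjusted p = 0.00327). Ccnd1, encoding cyclin D1, fell to 225, 188 and 179.8 CPM with BCS, with 257, 259 and 238 CPM in Ctr1-null cells, against 274, 332 and 335 CPM in wild type cells. Its log2 fold change with BCS against wild type was -0.67 ± 0.11 (edgeR adjusted p = 0.00808), and in Ctr1-null against wild type -0.32 ± 0.11 (0.198). Cdc25a, a cell cycle phosphatase gene, fell by 0.50 ± 0.12 (edgeR adjusted p = 0.0258), and Rrs1, Gnl3 and Slc20a1 were the other lower calls. In the copper delivery list Slc31a1 and Atp7a, the copper exporter gene, were called lower with BCS against wild type, Atp7a by 0.30 ± 0.08 (edgeR adjusted p = 0.0368). Slc31a1, the targeted gene, was at -4.47 there and already at -4.40 in Ctr1-null against wild type.

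**Figure D5:**
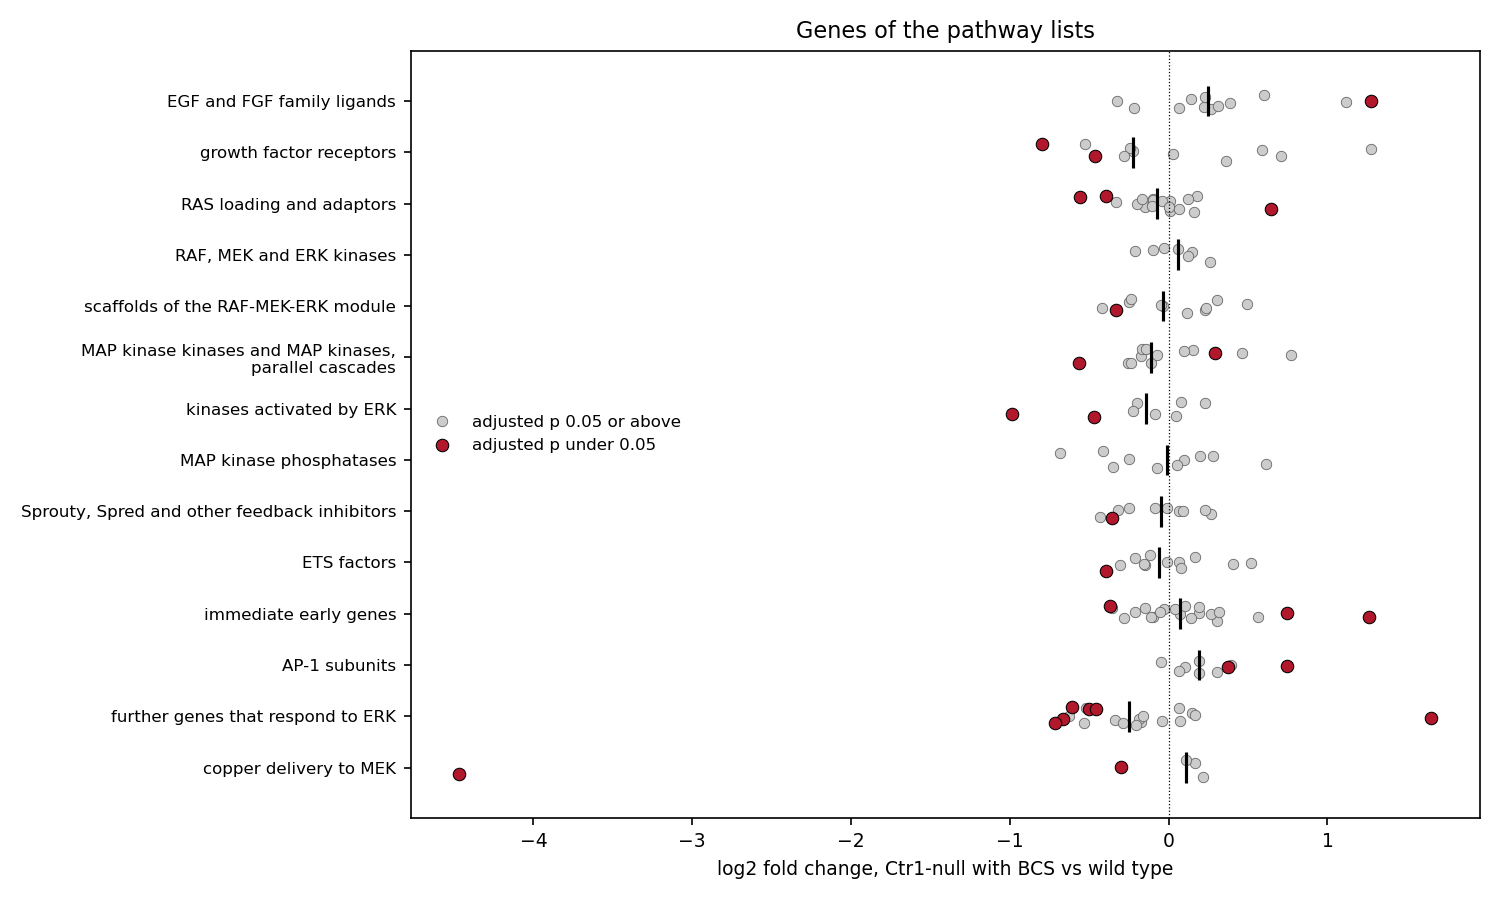
Log2 fold change with BCS against wild type of the tested genes of each pathway list (points, red where the edgeR adjusted p was under 0.05) and the median of each list (vertical black lines). The red points lie on both sides of 0, and the point at -4.47 is Slc31a1.

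Apart from Slc31a1 and Gdf15, no list gene passed in the other comparisons, and the genes given next had the smallest p of their list. In Ctr1-null against wild type these included Fgf5 (0.95 ± 0.21, edgeR adjusted p = 0.101), Fosl2 (0.57 ± 0.16, 0.147), Dusp7 (0.33 ± 0.10, 0.149) and Mknk1 (-0.28 ± 0.07, 0.129). The smallest with BCS against Ctr1-null included Rps6ka4 (-0.42 ± 0.08, edgeR adjusted p = 0.0899), Nr4a2 (-0.77 ± 0.19, 0.146), Dusp8 (0.33 ± 0.10, 0.204) and Ccs (0.34 ± 0.12, 0.230). When wild type replicate 1 was left out, 51 of 162 list genes passed in Ctr1-null against wild type, 32 of them higher, which is 31.5% beside 17.3% of all genes. Against wild type, 55 of 162 passed with BCS, or 34.0% beside 31.0%. The lists hold the 10 members, so these counts include, in that order, the 5 and 3 members called in that fit.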

How the data were processed

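RNA from 9 libraries of immortalised MEFs was measured in 3 groups of 3, taken from the labels. The authors deposited whole-number estimated counts without normalisation. They also deposited a signal table, in which each count is divided by a factor for its gene and sample. FastQC, STAR, Salmon, DESeq2 and GRCm38 are named, per the submitters' processing notes, with no version or role given. Tests used the counts, and the signal table gave only the factors for 1 alternative.

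Gene identifiers were matched without version to GENCODE M21, which named 52566 of 52661 rows. Counts were TMM-scaled and fitted in edgeR 4.0.16 (R 4.3.3) by quasi-likelihood over all 9 libraries and 3 groups, after filterByExpr (minimum count 10, minimum total 15) left 18408 genes. Tests were 2-sided, Benjamini-Hochberg adjusted over all of these and called at an adjusted p under 0.05. SE is the size of the log2 fold change over the square root of F. The fit was tested on simulated data. A count of 0 allows 3 counts, or 0.0546 to 0.0811 CPM, covering counting error only.

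The members, lists and markers were chosen with earlier results of these data known. Named genes were all members, Slc31a1, up to 2 called genes per direction and list by smallest p (otherwise the list's smallest p, of which examples are given), and the 3 genes most correlated with 6 members. Ccdc85b and the remaining called genes of the ERK-responsive list were named beside them after their values were seen. Values of some list genes are not reported here. Alternatives were other scalings (DESeq2 size factors, upper-quartile factors, library size, the authors' factors), no filter, a stricter filter (1 CPM in 3 libraries), DESeq2 1.42.0, limma-voom (limma 3.58.1), only the groups compared, a replicate block and leaving out each library. Transcript length per kb and list counts without wild type replicate 1 were added after the data were seen. No library was left out of the main fit. Figures used matplotlib 3.10.9.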

Additional observations from a re-analysis of the deposited data

How the results depend on the processing

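Counts of all genes called depended on the tool and on single libraries. In Ctr1-null against wild type, 2 genes were called by the edgeR fit of all libraries, 4 with DESeq2 size factors, library size alone, upper-quartile factors, the stricter filter or the authors' factors, 265 without a filter, 1056 by DESeq2, 6 by limma-voom, 1 with only the 2 groups compared and 1 to 3254 with 1 library left out. BCS against Ctr1-null had 10 called, 114 without a filter, 711 by DESeq2 and 0 to 183 with 1 library left out. BCS against wild type had 2916 called, and 568 to 5840 with 1 library left out, the most without wild type replicate 1.

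Of the 10 members, DESeq2 called 1 in Ctr1-null against wild type and library size alone called 1 with BCS against wild type. With 1 library left out, 0 to 5 were called in Ctr1-null against wild type and 0 to 3 with BCS against wild type. Called list genes numbered 2 without a filter and 15 by DESeq2 in Ctr1-null against wild type, against 1, and 1 to 51 with 1 library left out. In BCS against Ctr1-null they numbered 6 by DESeq2, 0 with only the 2 groups compared and 0 to 3 with 1 library left out, against 1. BCS against wild type had 25, and 3 to 55 with 1 library left out.

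Correlations of libraries with the same replicate number are given as a description. Whether these numbers pair the libraries was not tested. Of 9 same-number pairs, 2 correlated above 0.1, with r from -0.32 to 0.28, and not every library correlated best with its own number. With a replicate block, 1543 genes were called with BCS against wild type, 2 with BCS against Ctr1-null and 1 in Ctr1-null against wild type. List genes called with the block numbered 13, 0 and 1 in these comparisons.

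Of 570 log2 fold changes of members under alternatives, 10 changed sign, each of an uncalled value. Where leaving out 1 library changed the sign, the lowest and highest values over such fits are given. For BCS against wild type these were Map2k2 with library size alone (0.0032), Dusp4 (-0.13 to 0.45, below 0 without BCS replicate 1, at -0.065, or wild type replicate 2) and Fosl1 (-0.089 to 0.26, below 0 without BCS replicate 1 or 2, or wild type replicate 2, at -0.011, -0.089 and -0.0053). For Ctr1-null against wild type they were Map2k1 (-0.012 without Ctr1-null replicate 1, up to 0.11) and Egr1 (-0.00057 without Ctr1-null replicate 3, up to 1.18). For BCS against Ctr1-null they were Spry2 (-0.41 to 0.016) and Fosl1 (-0.51 to 0.020), above 0 without Ctr1-null replicate 1. The cause of these changes was not tested. Depth limits Dusp4, at 23 to 107 counts per library, more than the other members.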
